A study of Homo sapiens and Mus musculus with 74 samples.

Results

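The endocytic receptors of the low-density lipoprotein (LDL) receptor family were followed with their closest partners in mice that lack the ribosomal protein gene Rpl41. They were chosen by symbol, 9 genes of the 22484 with a coding transcript in the count table: Lrp2, Cubn, Amn, Dab2, Lrp1, Lrp1b, Lrp5, Lrp6 and Vldlr. Each gene is shown by the transcript that encodes its longest protein in GENCODE M21 (GRCm38). KO mice carried a homozygous deletion of the whole Rpl41 coding sequence, made with CRISPR-Cas9 in C57BL/6J zygotes, and WT littermates were the controls. All animals were 10-week-old males. Whole kidney and whole brain were profiled by RNA-seq of poly(A) RNA and by Ribo-seq, which sequences the fragments that single ribosomes protect (ribosome-protected fragments, RPFs). Kidney was also profiled by disome-seq, which sequences the longer fragments under a pair of adjacent ribosomes. Each combination of genotype, tissue and assay had 3 libraries, 30 in all. The study calls its replicates biological, and the labels tie no library to an animal, so the p-values measure the spread between libraries.

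Lrp2, or megalin, and cubilin (Cubn) take up filtered proteins and protein-bound vitamins at the brush border of the proximal tubule of the kidney. Amnionless (Amn) anchors cubilin in the membrane, and Dab2 is an adaptor that links the receptors to clathrin-coated pits. Cubilin itself belongs to a different protein family and lacks a membrane-spanning part, so it relies on Amn and megalin for uptake. Lrp1 is a giant scavenging receptor of many cell types, and Lrp1b is its close relative, known mainly from brain. Lrp5 and Lrp6 are coreceptors for Wnt ligands. Vldlr binds lipoproteins and reelin, the guidance protein of migrating neurons.

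Dab2 and related adaptors bind the NPxY motif, asparagine-proline-any residue-tyrosine, in the cytoplasmic tails of these receptors. The coding sequences around the motif are shown because they set the receptors of the list that carry it apart from those that do not. Sequences are from GENCODE M21 (GRCm38), read on the coding strand, and capitals mark the 4 codons of the motif.
Lrp2, codon 4524: atatttgaaAACCCAATGTATgcagccaaa
Lrp2, codon 4603: aacttcgaaAATCCAATCTATgcagagatg
Lrp1, codon 4471: gaaattggaAACCCTACCTACaagatgtat
Lrp1, codon 4505: aacttcaccAACCCAGTGTATgccacgctc
Lrp1b, codon 4492: gaaatcggcAATCCATCATACaatatgtat
Lrp1b, codon 4559: aattactccAACCCAGTATATgcaaaatta
Vldlr, codon 834: aactttgacAATCCTGTGTACttgaagacc
Lrp2, Lrp1 and Lrp1b each had 2 such sites within their last 220 codons and Vldlr had 1, while Cubn, Amn, Dab2, Lrp5 and Lrp6 had 0. Among all 22484 coding transcripts, 1 per gene, 339 (1.51%) held NPxY codons in that window. The Lrp2 sites were followed by 133 and 54 further codons, those of Lrp1 by 71 and 37, those of Lrp1b by 104 and 37, and that of Vldlr by 36. The first Lrp2 stretch lies at chr2:69430296-69430325 on the minus strand, and the second crosses an exon boundary between 69425801 and 69425997 of the same chromosome. The Lrp1 stretches lie at chr10:127539299-127539328 and chr10:127539055-127539084, and those of Lrp1b at chr2:40600320-40600349 and chr2:40597039-40597068, all on the minus strand. The Vldlr stretch lies at chr19:27247931-27247960 on the plus strand.

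The genes differ greatly in size. Lrp2 spans chr2:69424340-69586065 on the minus strand, with 79 exons and a protein of 4660 amino acids, the 40th longest of the 22484 proteins. Lrp1b (chr2:40595246-42653624, 91 exons, 4599 amino acids) and Lrp1 (chr10:127538161-127621148, 89 exons, 4545 amino acids) ranked 44th and 49th, and Cubn (chr2:13276338-13491813, 67 exons, 3623 amino acids) ranked 94th, all on minus strands. Lrp5 (chr19:3584828-3686564) and Lrp6 (chr6:134446476-134566965) encode 1614 and 1613 amino acids from 23 exons each. Vldlr (chr19:27216484-27254231) encodes 873 amino acids, Dab2 (chr15:6299788-6440712) 766 and Amn (chr12:111271095-111276426) 458. Cubn, Dab2, Lrp1 and Lrp1b overlap annotated genes of the opposite strand, and the strand setting of the counting is not given in the sources used here.

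Counts per library summed to 44998381 to 55077048 (RNA-seq, kidney), 84433838 to 123745890 (RNA-seq, brain), 11036643 to 42452425 (Ribo-seq, kidney), 9498663 to 35881929 (Ribo-seq, brain) and 1187636 to 3018963 (disome-seq). Rpl41 had 3695 to 7502 counts in WT and 3 to 8 in KO kidney RNA-seq, and 8981 to 12199 against 6 to 12 in brain RNA-seq, as labelled. KO kidney RNA-seq libraries 2 and 3 stood apart in the share of counts from mitochondrial rRNA (1.76% and 1.67%, against 0.436% to 0.962% in the other 4 kidney RNA-seq libraries). KO values are therefore also given without them where they bear on a result. The summed level of 8 proximal tubule markers was 13104 to 16122 CPM (counts scaled to the library total) in WT and 16878 to 19150 CPM in KO kidney RNA-seq, and 50.2 to 60.4 CPM in brain RNA-seq, as the tissue labels give it. Kap alone made up most of the kidney sum, at 9167 to 12216 CPM in WT and 12668 to 14849 CPM in KO. Slc5a12 lay wholly lower in KO (34.9 to 56.7 CPM in WT and 30.0 to 33.1 CPM in KO). By log2 fold change 7 of the 8 were higher in KO kidney RNA-seq and 1 lower. In whole organs, fewer cells of a type and less RNA per cell cannot be told apart.

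In WT kidney, the receptor complex of the proximal tubule carried most of the footprints of the list. Per kilobase of coding sequence, Lrp2 had 107.7 ± 10.8 CPM (SD, n = 3) in Ribo-seq, followed by Amn (72.5 ± 9.81) and Dab2 (72.2 ± 2.04), whose ranges overlapped, and by Cubn (42.9 ± 5.29). Vldlr (7.50 ± 0.247), Lrp6 (5.12 ± 0.689), Lrp1 (4.31 ± 1.93) and Lrp5 (2.18 ± 0.156) came next, and the ranges of Lrp6 and Lrp1 overlapped. Lrp1b was lowest at 0.0633 ± 0.0146 CPM per kilobase, from 11 to 20 counts a library. RNA per kilobase of transcript gave an order that also started with Lrp2 (41.7 ± 1.92 CPM per kilobase), then Amn (30.8 ± 2.37) and Dab2 (29.4 ± 2.66), which overlapped, then Cubn (12.2 ± 1.73). No count of Lrp1b was found among the 144756651 counts of the 3 WT kidney RNA-seq libraries, which allows up to 0.0207 CPM.

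The WT brain showed another order. Footprints of Lrp1 stood highest at 20.0 ± 3.804 CPM per kilobase (SD, n = 3), above Vldlr (9.33 ± 1.89), Lrp1b (3.03 ± 0.344), Dab2 (2.63 ± 0.111) and Lrp6 (2.35 ± 0.303), the last 3 of which overlapped in part. Amn (1.02 ± 0.175) and Lrp5 (0.808 ± 0.179) overlapped, and Lrp2 (0.298 ± 0.197) and Cubn (0.0302 ± 0.00892) were lowest. The plot of levels by library shows both tissues side by side.

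**Figure D1:**
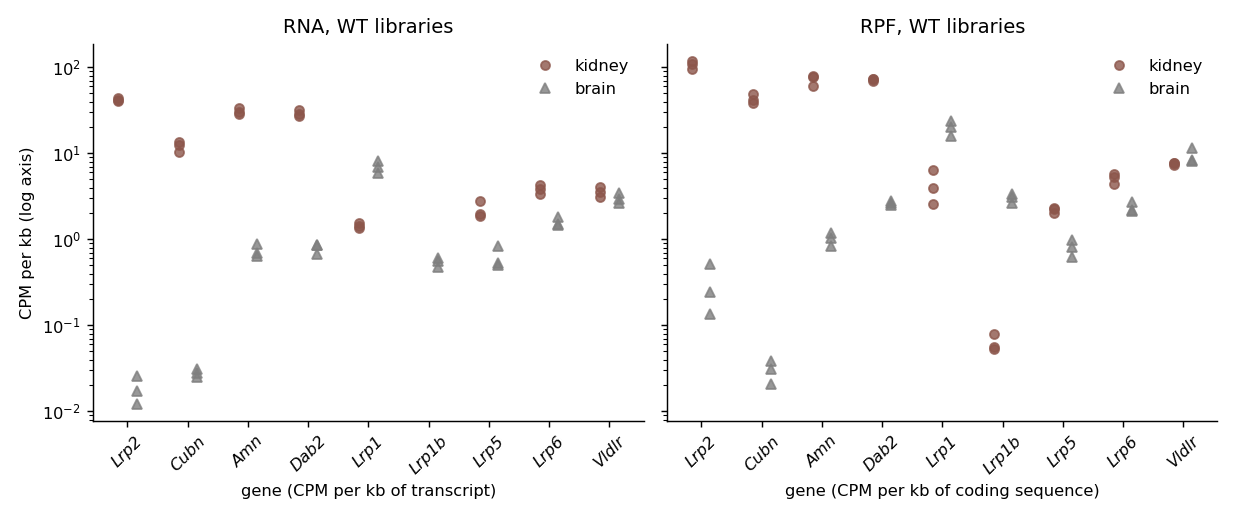
Level of each gene in the WT libraries, in CPM per kilobase on a log axis, for RNA-seq (per kilobase of transcript) and Ribo-seq (per kilobase of coding sequence), with kidney libraries as circles and brain libraries as triangles. Lrp2, Cubn, Amn and Dab2 lie far higher in kidney, Lrp1 and Lrp1b lie higher in brain, and values of 0 (Lrp1b in kidney RNA-seq) are not drawn.

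Kidney and brain were compared in the WT libraries with edgeR's quasi-likelihood F-test and Benjamini-Hochberg adjustment over all transcripts tested, with a threshold of 0.05. On this scale of log2 kidney over brain RNA, Lrp2 differed by 11.38 (standard error 0.36), Cubn by 9.01, Amn by 5.65 and Dab2 by 5.45, all higher in kidney. Lrp5 (2.09), Lrp6 (1.5) and Vldlr (0.50, adjusted p = 0.0119) were also higher in kidney, and Lrp1 was lower (-2.02). Lrp1b was at least 432-fold higher in brain, against a floor of 3 counts over the 3 WT kidney libraries. All 9 genes passed the threshold, as did 64.1% of all transcripts tested, so such a call was common between these organs. In footprints 8 of 9 passed, beside 70.9% of all transcripts. Log2 differences in footprints were 10.62 for Cubn, 8.50 for Lrp2, 6.19 for Amn and 4.86 for Dab2 in the direction of kidney, and -5.53 for Lrp1b and -2.13 for Lrp1 in the direction of brain. Vldlr footprints differed by -0.24 (standard error 0.15, adjusted p = 0.177), which did not pass.

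Loss of Rpl41 went with more footprints on 3 of the 4 giant receptors in kidney. Lrp2 and Cubn, the uptake receptors of the proximal tubule, and Lrp1, the scavenging receptor, rose 1.54-fold, 1.52-fold and 2.12-fold in Ribo-seq, while the few footprints of Lrp1b fell. Their partner Amn and the Wnt coreceptors Lrp5 and Lrp6 had log2 fold changes (KO over WT) between -0.01 and 0.10. None of the 9 passed the threshold in kidney RNA-seq.

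Lrp2 had 1520, 1650 and 1348 CPM in the WT kidney Ribo-seq libraries and 1994, 2368 and 2269 CPM in the KO libraries. All KO values thus exceeded all WT values. On the log2 scale KO exceeded WT by 0.62 (standard error 0.17), with an adjusted p of 0.0456 from edgeR. Cubn had 450.9, 529.6 and 417.5 CPM in WT and 573.2, 735.3 and 724.2 CPM in KO, again without overlap. KO exceeded WT by 0.61 (standard error 0.15, adjusted p = 0.0331).

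Neither partner of these receptors passed in kidney footprints, and their changes were not tested against those of the receptors. Amn had 106.3, 108.4 and 84.1 CPM in WT and 99.1, 94.7 and 100.4 CPM in KO, and the groups overlapped (log2 fold change 0.05, standard error 0.12, adjusted p = 0.828). Dab2 had 160.5, 168.6 and 168.6 CPM in WT and 198.6, 176.0 and 173.6 CPM in KO. The KO libraries of Dab2 lay above WT, but the difference of 0.22 (standard error 0.13, adjusted p = 0.319) did not pass.

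Lrp1 had 87.1, 54.4 and 34.9 CPM in WT kidney Ribo-seq and 80.0, 148.9 and 127.3 CPM in KO. The groups overlapped, since KO library 1 lay below WT library 1. KO exceeded WT by 1.08 on the log2 scale (standard error 0.25), at an adjusted p of 0.0247. Lrp1b had 20, 11 and 15 counts in WT and 1, 16 and 14 in KO, libraries of unequal depth, which gave 0.740 to 1.11 CPM against 0.0906 to 0.377 CPM. All KO values lay below WT on the CPM scale, and the difference was -1.31 on the log2 scale (standard error 0.35), at an adjusted p of 0.0418. The lowest KO library lay under the floor of 3 counts, which leaves the size of the fall unsure, and Lrp1b RNA was at 0 counts in 5 of the 6 kidney libraries.

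Vldlr, the lipoprotein and reelin receptor, had 20.0, 18.9 and 20.0 CPM in WT and 19.8, 24.8 and 25.8 CPM in KO kidney Ribo-seq (log2 fold change 0.34, standard error 0.11, adjusted p = 0.0706). KO library 1 lay among the WT libraries. Lrp5 ranged from 9.72 to 11.2 CPM in WT and 7.52 to 11.1 CPM in KO, and Lrp6 from 21.2 to 27.8 and 20.5 to 29.0 CPM. Both Wnt coreceptors overlapped between genotypes.

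**Figure D2:**
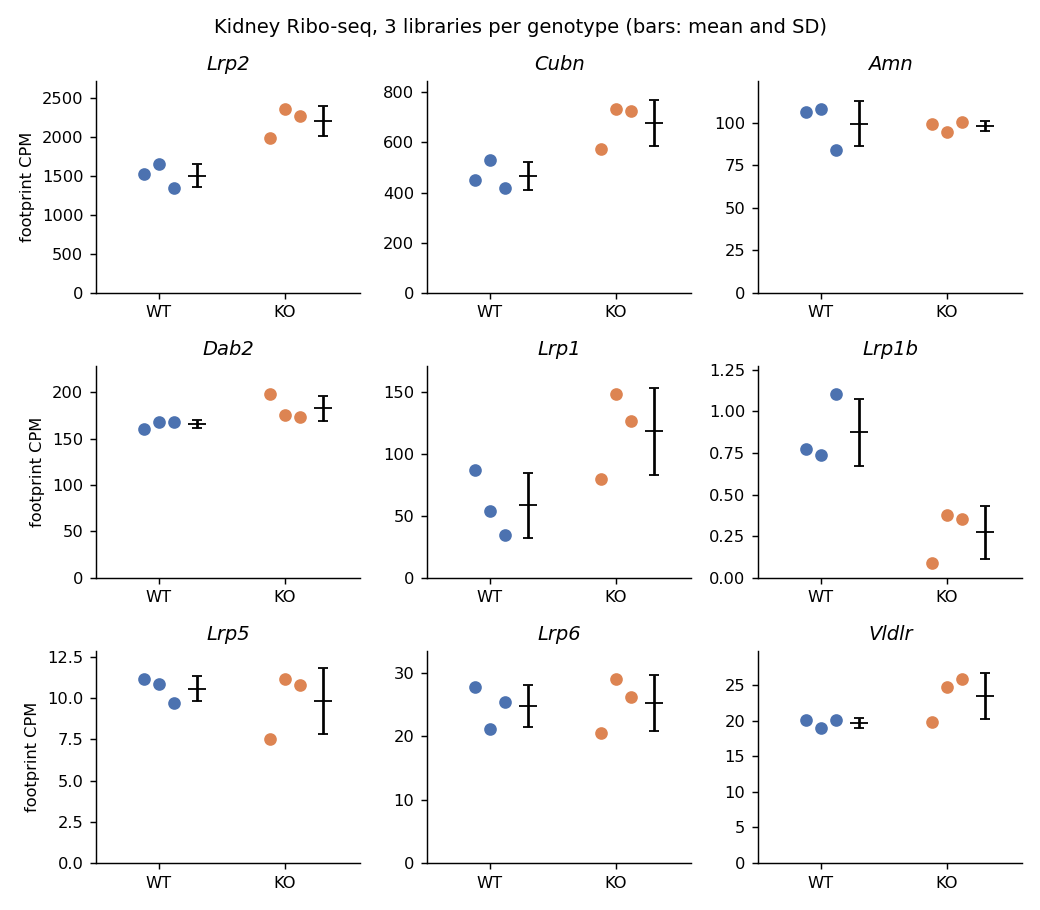
Kidney Ribo-seq CPM of each gene in the 3 WT and 3 KO libraries, as points, with the mean and SD of each group. KO libraries lie wholly above WT for Lrp2, Cubn and Dab2 and wholly below WT for Lrp1b, and they overlap WT for the other 5 genes.

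Of the 9 genes, 4 thus passed in kidney footprints, 3 higher and 1 lower, against 7.76% of the 75266 transcripts tested (3573 higher and 2265 lower). Scaling by library totals alone turned the split over all transcripts to 1531 higher and 2543 lower, and the same 4 genes passed in the same directions. The median log2 fold change of the 9 was 0.22, and that of all transcripts was -0.01. DESeq2 called 2 of the 9, with 3497 of all transcripts, and limma voom called 5 of the 9, with 10106 of all transcripts. Groups did not overlap for 4 of the 9, against 30.7% of transcripts that had 10 counts or more in all libraries (11.1% with KO above WT and 19.7% with KO below). Lrp1b, 1 of these 4, is outside that set of transcripts, since its lowest library had 1 count.

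The calls rested on all libraries together. Without WT library 1 or 3 only Lrp1 passed (adjusted p = 0.0191 and 0.034), and without WT library 2 only Cubn (0.0449). Without KO library 1, the shallowest, Lrp2, Cubn, Lrp1 and Vldlr passed (0.0177, 0.0159, 0.0153 and 0.0473). Without KO library 2 or 3, 0 of the 9 passed with edgeR, and the adjusted p of Lrp2 was 0.139 and 0.201, that of Cubn 0.12 and 0.162, that of Lrp1 0.107 and 0.0966 and that of Lrp1b 0.12 and 0.131. The log2 fold changes across these 6 fits were 0.56 to 0.72 for Lrp2, 0.55 to 0.73 for Cubn, 0.83 to 1.45 for Lrp1 and -1.47 to -1.13 for Lrp1b.

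In kidney RNA none of the receptors passed, and the libraries of Lrp2, Cubn and Lrp1 lay lower in KO on the CPM scale. Lrp2 had 677.9, 635.7 and 620.5 CPM in WT and 519.2, 521.4 and 466.6 CPM in KO, and after scaling KO differed by -0.20 on the log2 scale (standard error 0.13), at an adjusted p of 0.41 from edgeR. Cubn had 115.7, 153.6 and 141.9 CPM in WT and 110.8, 84.9 and 87.7 CPM in KO (log2 fold change -0.38, standard error 0.16, adjusted p = 0.292). For both genes, every KO library lay below every WT library. Lrp1 had 21.1, 23.2 and 20.1 CPM in WT and 17.5, 12.8 and 11.9 CPM in KO, also without overlap (log2 fold change -0.46, standard error 0.16, adjusted p = 0.292). Such a pattern, KO below WT, was seen in 13.5% of transcripts that had 10 counts or more in all libraries.

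Amn RNA, at 48.8 to 56.7 CPM in WT and 49.3 to 56.7 CPM in KO, differed by 0.15 on the log2 scale (standard error 0.15). The log2 fold changes were -0.50 for Lrp5 (standard error 0.24, adjusted p = 0.314), -0.15 for Lrp6, and -0.03 for Dab2 and Vldlr. Of the 8 genes tested, 0 passed with edgeR and 2 (Cubn and Lrp1) had an unadjusted p under 0.05. Among all 70545 transcripts 0.00992% passed. DESeq2 called 0 of the 8, with 465 of all transcripts. Limma voom called Lrp2, Lrp1 and Lrp5, 3 of the 8, with 29361 of all 70545 transcripts, so such a call was common with that tool. Without KO library 1, Lrp1 (-0.58, adjusted p = 0.044) and Lrp5 (-0.74, adjusted p = 0.0466) passed with edgeR, among 12466 transcripts (5344 higher and 7122 lower) in place of 7. KO libraries 2 and 3, which that fit keeps, are those high in mitochondrial rRNA. Without both of them the differences were -0.26 for Lrp2, -0.26 for Cubn, -0.25 for Lrp1 and -0.09 for Lrp5, with 0 of the 8 passing.

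Markers of other cells moved with genotype in these libraries. In kidney RNA-seq the summed level of 6 loop and distal nephron markers was 1690 to 1989 CPM in WT and 1304 to 1568 CPM in KO, that of 4 podocyte markers was 104 to 119 and 55.6 to 74.8 CPM, and that of 4 endothelial markers was 58.0 to 73.8 and 40.3 to 52.9 CPM. In kidney Ribo-seq the loop and distal nephron sum was 1314 to 1563 CPM in WT and 1759 to 1864 CPM in KO, whereas the proximal tubule sum was 3815 to 4525 and 3613 to 5489 CPM. The endothelial sum there was 89.1 to 126 CPM in WT and 122 to 141 CPM in KO. The podocyte sum was 56.1 to 99.0 and 65.4 to 67.2 CPM, and both sums overlapped between genotypes. By log2 fold change in kidney Ribo-seq, all 4 endothelial markers were higher in KO and all 4 podocyte markers lower. The 6 loop and distal nephron markers did not move alike. In kidney Ribo-seq Calb1 (118 to 159 CPM in WT and 102 to 115 CPM in KO) and Aqp2 (63.3 to 89.4 and 52.6 to 59.6 CPM) lay wholly lower in KO. By log2 fold change in kidney RNA-seq, 2 of the 6 were higher and 4 lower. The part of these shifts in the receptor values was not tested. None of these markers passed in kidney RNA-seq with edgeR, and in kidney Ribo-seq Slc12a1 (log2 fold change 0.83) and Scnn1g (0.48) of the loop and distal nephron, Pecam1 (0.57) of endothelium and Ptprc (0.80) of leukocytes passed.

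Translation efficiency (TE), the footprint level relative to RNA, was taken from a joint fit of both assays as the genotype effect in Ribo-seq minus that in RNA-seq. Relative to the mean RNA level of the genotype, Lrp2 footprints stood at log2 ratios of 1.24, 1.36 and 1.06 in WT kidney and 1.99, 2.24 and 2.18 in KO. Cubn stood at 1.72, 1.95 and 1.61 in WT and 2.60, 2.96 and 2.94 in KO, and Lrp1 at 2.02, 1.34 and 0.70 in WT and 2.51, 3.41 and 3.18 in KO. All KO ratios lay above all WT ratios for these 3 receptors, and also for Dab2, Lrp5 and Vldlr, while those of Amn and Lrp6 overlapped. The same RNA mean enters every ratio of a genotype, so an RNA difference moves its 3 ratios together. Footprints of Lrp1, Lrp5 and Vldlr overlapped between genotypes before this division. The share of all transcripts with such a pattern was not counted. The model gave TE differences of 0.82 for Lrp2 (standard error 0.18, adjusted p = 0.114), 0.98 for Cubn (0.22, adjusted p = 0.117) and 1.54 for Lrp1 (0.39, adjusted p = 0.12) on the log2 scale.

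The TE differences of the other genes were smaller. They were 0.45 for Lrp5 (standard error 0.30), 0.35 for Vldlr (0.18), 0.24 for Dab2 (0.17), 0.23 for Lrp6 (0.21) and -0.10 for Amn. For Lrp1b no TE fold is given, because its RNA was at 0 counts in WT, although the model fitted it (adjusted p = 0.211). With edgeR 0 of the 9, Lrp1b included, passed in kidney TE, as 0% of the 89685 transcripts did, although 4 of the 9 (Lrp2, Cubn, Lrp1 and Lrp1b) and 16939 transcripts had an unadjusted p under 0.05. DESeq2 called 3 of the 9, Lrp2 (adjusted p = 0.00527), Cubn (0.00681) and Lrp1 (0.0193), with 4089 of all transcripts. Limma voom called these 3 and Lrp5, with 26780 of all transcripts.

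The same 3 receptors passed in kidney TE with 1 transcript per gene in the fit (adjusted p = 0.0412, 0.0412 and 0.0454), where 184 genes passed higher and 171 lower of 15616, and without KO RNA-seq library 1 (Lrp2 0.0134, Cubn 0.0076, Lrp1 0.0125), where 16331 of all transcripts passed. Without both KO RNA-seq libraries high in mitochondrial rRNA the TE differences were 0.86 for Lrp2 (adjusted p = 0.439), 0.83 for Cubn and 1.30 for Lrp1, with 1 KO RNA-seq library left and its spread taken from the other groups. A replicate block across the assays, which pairs the libraries that carry the same number in both assays, called 0 of the 9 and 0 transcripts with edgeR.

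**Figure D3:**
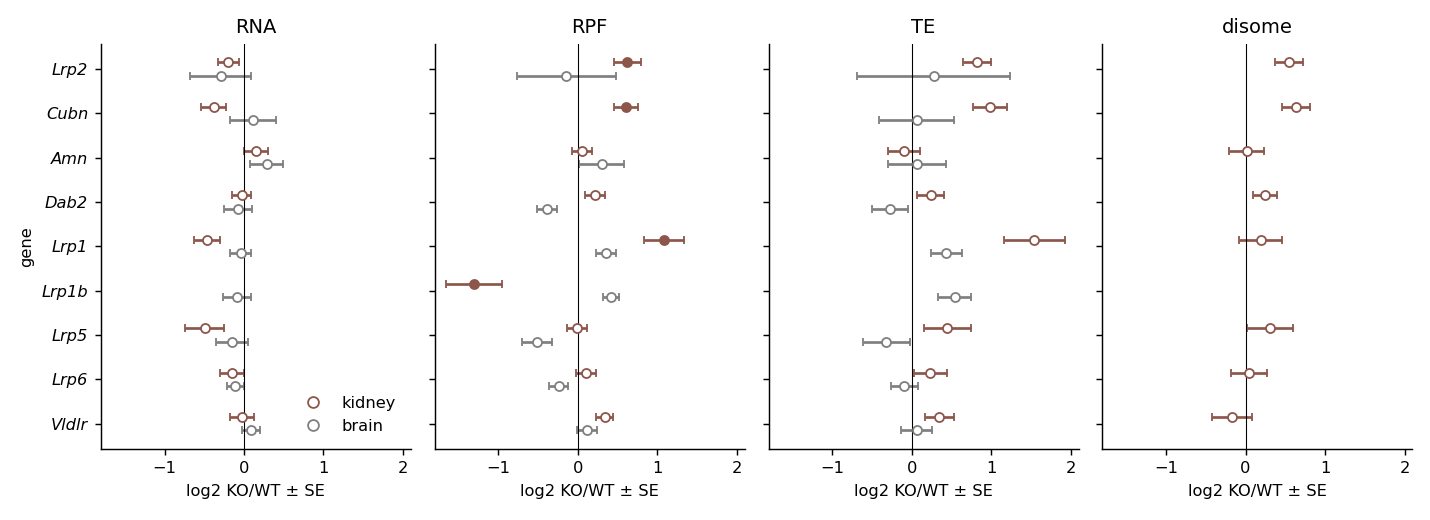
Log2 fold change of KO over WT for each gene in kidney RNA, kidney RPF, kidney TE, kidney disome, brain RNA, brain RPF and brain TE, with bars of 1 standard error and filled points for an adjusted p under 0.05. Filled points are found in kidney RPF alone (Lrp2, Cubn and Lrp1 above 0 and Lrp1b below 0), and genes that were not tested and Lrp1b in kidney TE are not drawn.

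The count table lists annotated partial transcripts, and those that overlap a full-length transcript show how footprints changed along it. In kidney Ribo-seq the log2 ratio of mean KO CPM over mean WT CPM, before scaling, was 1.01 for the whole Lrp1 transcript. The partial transcripts over bases 1 to 2994 and 179 to 2666 of its 14888 bases had log2 ratios of 0.80 and 0.76. A partial transcript over bases 11049 to 11657 had a log2 ratio of 1.34, with 1.21 to 2.55 CPM in WT and 3.17 to 5.23 CPM in KO, without overlap. In Lrp2 the partial transcript over bases 37 to 4220 of 15460 had a log2 ratio of 0.42 and the whole transcript 0.55. No test was run on these log2 ratios of stretches, which share reads with the full-length transcript. The share of counts that a 5' stretch took was tested, as given further on.

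In brain Ribo-seq the 5' stretches of both giant receptors of that tissue also lay below the whole transcript. Lrp1b stood at 0.28 over bases 568 to 5718 and at 0.53 over bases 12114 to 16008 of 16294, beside 0.40 over the whole transcript. Lrp1 in brain stood at 0.23 over bases 1 to 2994, 0.40 over bases 11049 to 11657 and 0.39 over bases 13723 to 14450, beside 0.34 over the whole. Vldlr in kidney stood at -0.23 over bases 1 to 460 and 0.41 over bases 1252 to 2151, beside 0.25.

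**Figure D4:**
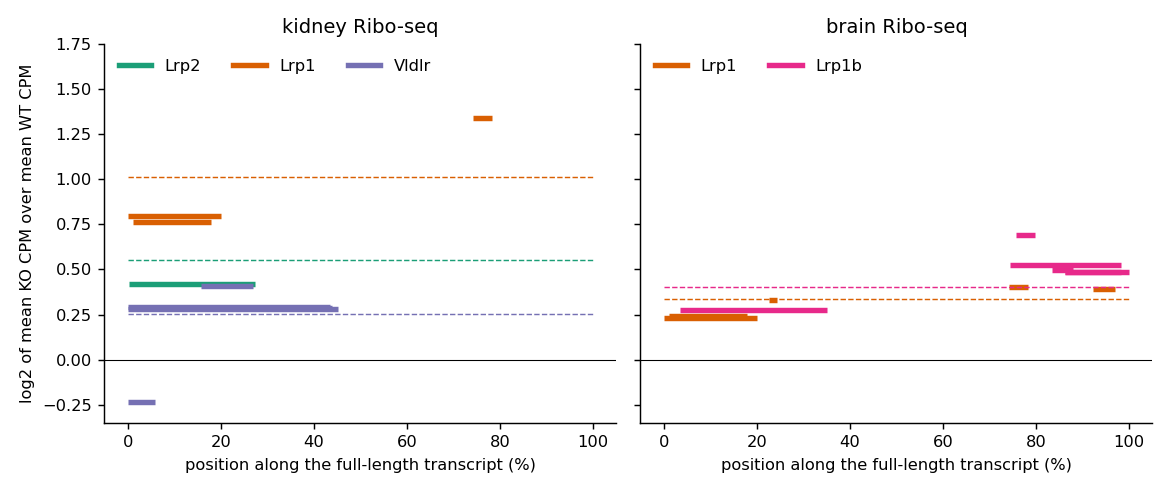
Log2 ratio of mean KO CPM over mean WT CPM for annotated partial transcripts in Ribo-seq, each drawn as a bar over the stretch of the full-length transcript that it covers (in percent of its length), with the ratio of the full-length transcript as a dashed line. Stretches near the 5' end of Lrp2 and Lrp1 in kidney and of Lrp1 and Lrp1b in brain lie below the dashed lines, the stretches of Lrp1 and Lrp1b in the last part of the transcript lie above them, and of all stretches drawn the first of Vldlr (-0.23) is below 0.

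The share of Lrp2 counts that the 5' stretch (bases 37 to 4220) took could be followed in each library. In kidney Ribo-seq it was 35.5%, 35.4% and 34.2% in WT and 33.6%, 31.3% and 31.4% in KO. In disome-seq it was 28.6%, 29.7% and 33.1% in WT and 25.9%, 24.2% and 23.9% in KO. For Lrp2 the KO libraries lay below WT in both assays, with a difference of -2.93 percentage points in footprints and -5.81 in disomes. The exact permutation p was 0.1 each, two-sided, the smallest that 3 against 3 libraries can give. Lrp1, Lrp6 and Vldlr also had such a stretch in kidney. In footprints Vldlr went the other way without overlap, by 3.78 percentage points (exact permutation p = 0.1). Lrp1 (-3.34, exact permutation p = 0.3) and Lrp6 (-3.48, exact permutation p = 0.2) fell with overlap. In disomes, from few counts, the genotypes overlapped for Lrp1 (-1.18), Lrp6 (0.33) and Vldlr (0.07). Over 1116 genes with such a stretch, the median share in kidney footprints lay at 40.0% to 40.7% in WT and at 37.8% to 38.6% in KO. Of these genes, 19.5% had all KO libraries below WT and 5.7% had all above. In disomes only 70 genes could be followed, with medians of 39.4% to 41.8% in WT and 37.5% to 38.2% in KO, and 14.3% of them had all KO libraries below WT. In brain footprints the shares of Lrp1 (-1.29) and Lrp1b (-1.52) lay wholly lower in KO (exact permutation p = 0.1 each). Lrp6 (-3.33) and Vldlr (-2.43) fell with overlap, and Lrp2 (1.63) rose with overlap. Over 1217 genes in brain footprints the median share lay at 41.0% to 41.4% in WT and at 39.8% to 40.6% in KO. Of these, 10.1% had all KO libraries below WT and 5.6% had all above.

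The kidney RNA-seq share of the same Lrp2 stretch was 1.153%, 1.093% and 1.443% in WT and 0.668%, 0.441% and 0.621% in KO. Few RNA reads thus came from the 5' part of this transcript in any library, and KO lay below WT there too (exact permutation p = 0.1). Over 2073 genes the median share in kidney RNA lay at 4.02% to 8.85% in WT and at 2.25% to 4.61% in KO, and 16% of genes had all KO libraries below WT. The medians of the genotypes overlapped, since KO library 1 (4.61%) lay above WT library 2 (4.02%). The lowest medians were those of KO libraries 2 and 3 (2.25% and 2.73%), which are also those high in mitochondrial rRNA. The part of 5' coverage in the TE values was not tested.

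No gene of the list passed in disome-seq, where the largest log2 fold changes were those of the uptake receptors Cubn and Lrp2. Lrp2 had 478.1, 439 and 357.7 CPM in WT disome-seq and 464.2, 678.6 and 637 CPM in KO, a difference of 0.55 on the log2 scale with a standard error of 0.17 and an adjusted p of 0.211 from edgeR. KO library 1 lay within the WT range. Cubn had 132.0, 136.8 and 80.0 CPM in WT and 151, 190.1 and 182.7 CPM in KO, without overlap (0.63, standard error 0.17, adjusted p = 0.158). Dab2 (168.4 to 185.7 CPM in WT and 187.8 to 203.9 CPM in KO) and Lrp5 (5.60 to 8.62 and 8.73 to 9.46 CPM) also had all KO libraries above WT, with log2 fold changes of 0.24 and 0.31, neither of which passed. KO lay wholly above WT in 7.3% of transcripts that had 10 counts or more in all disome-seq libraries. Lrp5 is outside that set, since its lowest library had 7 counts.

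The remaining disome values were close to each other or shallow. Lrp1 had 18 to 82 counts in WT and 32 to 52 in KO (log2 fold change 0.19, standard error 0.27). Amn differed by 0.02, Lrp6 by 0.04 and Vldlr by -0.17 on the log2 scale, and Lrp1b had no disome count in any library, which allows up to 0.412 CPM in WT and 0.55 CPM in KO. Of 8 genes tested, 0 passed with edgeR, 2 had an unadjusted p under 0.05, and 0.201% of the 34754 transcripts passed. DESeq2 called 1 of the 8 (Cubn, adjusted p = 0.0487) and 64 transcripts, and limma voom 0 of the 8 and 131 transcripts. With a replicate block, since disome-seq libraries of the same number deviated together, 252 transcripts passed (141 higher and 111 lower) in place of 70, and 0 of the 8.

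Disomes were also tested relative to single footprints, and no gene of the list passed. The disome change minus the footprint change was -0.87 for Lrp1 (standard error 0.43, adjusted p = 0.853) and -0.48 for Vldlr (0.25, adjusted p = 0.857), and it lay between -0.05 and 0.34 for the other 6 genes tested. With edgeR 0 of 8 passed and 0 had an unadjusted p under 0.05, DESeq2 and limma voom called 0, and 0% of the 67065 transcripts passed (3916 at an unadjusted p under 0.05, 10 by DESeq2 and 2 by limma voom). With a replicate block across assays, 207 transcripts passed (168 higher and 39 lower), and 0 of the 8.

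In brain no gene of the list passed in the edgeR tests of KO against WT after the filter on low counts. With no filter, edgeR called Lrp1b in brain footprints. In footprints Lrp1b and Lrp1, the giant receptors of brain, lay higher in KO on the CPM scale and Dab2, Lrp5 and Lrp6 had negative log2 fold changes. Lrp1b had 46.0, 36.6 and 42.8 CPM in WT brain Ribo-seq and 52.8, 56.2 and 56.5 CPM in KO, without overlap (log2 fold change 0.42, standard error 0.11, adjusted p = 0.203). Lrp1 had 322.9, 219.4 and 277.1 CPM in WT and 331.1, 366.1 and 338.0 CPM in KO, also without overlap (0.36, standard error 0.13, adjusted p = 0.296). Dab2, at 5.83, 6.00 and 6.33 CPM in WT and 4.66, 4.57 and 4.41 CPM in KO, lay wholly lower in KO (-0.39, standard error 0.13, adjusted p = 0.267), and so did Lrp6 (10.3 to 13.0 CPM in WT and 9.32 to 9.78 CPM in KO, -0.24, adjusted p = 0.439).

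Lrp5 footprints in brain ranged from 3.05 to 4.78 CPM in WT and 2.40 to 3.20 CPM in KO (difference -0.52, standard error 0.19, adjusted p = 0.312). Of the 8 genes tested in brain footprints, 0 passed with edgeR and 4 had an unadjusted p under 0.05, and 0.0345% of the 81112 transcripts passed. DESeq2 called 1 of the 8 (Lrp1b, adjusted p = 0.0272) and 388 transcripts, and limma voom 0 of the 8 and 112 transcripts. Groups did not overlap for 2 genes with KO above WT and 2 with KO below, patterns that 8.5% and 11.2% of transcripts showed. The median of the 8 was -0.01. The median log2 fold change of 4 endothelial markers in brain was -0.62 in both footprints and RNA, and that of 5 blood markers was -1.34 and -1.28, and the part of these in the values above was not tested.

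Brain RNA showed no difference past the threshold. Log2 fold changes ran from -0.30 (Lrp2, from 17 to 37 counts a library) to 0.28 (Amn), with a median of -0.08 over the 9 genes. With edgeR, DESeq2 and limma voom 0 of 9 passed, 0 had an unadjusted p under 0.05, and 0.0134% of the 89237 transcripts passed. Brain TE differences were 0.54 for Lrp1b (standard error 0.21, adjusted p = 0.895) and 0.44 for Lrp1 (0.19, adjusted p = 0.895). In brain TE 0 of 9 passed with edgeR, 2 had an unadjusted p under 0.05, DESeq2 called 0 and limma voom 1 (Lrp1b, adjusted p = 0.0492), and 0% of the 98861 transcripts passed (4677 at an unadjusted p under 0.05, 18 by DESeq2 and 193 by limma voom).

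Brain footprints of Lrp2 were few and uneven. WT libraries had 150, 18 and 74 counts and KO libraries 175, 54 and 31, which overlapped (log2 fold change -0.14, standard error 0.63). The 5' stretch of the transcript took 3.33%, 16.7% and 4.05% of these counts in WT and 1.71%, 11.1% and 16.1% in KO, where kidney footprints had 31.3% or more in every library. In brain Lrp2 is known from the choroid plexus and ependyma, and the summed footprint level of 7 markers of these was 253 to 329 CPM in WT and 201 to 286 CPM in KO. The groups overlapped, and by log2 fold change 3 of the 7 were higher in KO and 4 lower. In brain RNA-seq their sum was 326 to 352 CPM in WT and 382 to 403 CPM in KO, with 5 higher and 2 lower. Cubn had 4 to 14 footprint counts a library in brain and was not tested.

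The change in kidney was set against that in brain as a tissue by genotype term. In footprints it was -1.72 for Lrp1b (kidney minus brain, log2 scale, standard error 0.33, adjusted p = 0.0658), 0.77 for Lrp2 (0.66), 0.72 for Lrp1 (0.33, adjusted p = 0.636) and 0.60 for Dab2 (0.18, adjusted p = 0.347). With edgeR 0 of 9 passed, 4 had an unadjusted p under 0.05, and 0.0767% of the 88666 transcripts passed. DESeq2 called 1 of the 9 (Lrp1b, adjusted p = 0.00382) and 216 transcripts, and limma voom 0 of the 9 and 124 transcripts. Without KO brain Ribo-seq library 1, which holds most of the brain footprints of Lrp2 in KO, the term for Lrp2 was 2.18 (standard error 0.41, adjusted p = 0.0484).

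In RNA the largest tissue by genotype terms of the genes with counts in both tissues were those of Cubn (-0.54, standard error 0.24, adjusted p = 0.585) and Lrp1 (-0.47, 0.22, adjusted p = 0.585). With edgeR 0 of 9 passed, 2 had an unadjusted p under 0.05, and 0.00108% of the 92865 transcripts passed. DESeq2 called 0 of the 9 and 105 transcripts, and limma voom called Lrp1 alone of the 9 and 14554 transcripts. An effect past the threshold in kidney footprints and not in brain is therefore not shown to differ between the tissues for Lrp2, Cubn or Lrp1.

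The giant receptors were set beside other proteins of their length. In a fit of 1 transcript per gene, the median log2 fold change in kidney footprints was 0.43 over the 62 genes whose proteins reach 4000 amino acids (27 passed higher and 5 lower), 0.29 over 708 genes from 1500 up to 4000, 0.13 over 3951 genes from 600 up to 1500, and -0.09 over 8722 shorter ones. Lrp2 (0.62) and Lrp1 (1.09) lay above the median of the first class and Lrp1b (-1.31) below it. Cubn (0.61) lay above the median of the second class, to which Lrp5 and Lrp6 also belong by length and which they lay below. In kidney RNA the medians ran the other way, from -0.19 in the longest class to 0.02 in the shortest. Lrp2 (-0.32), Lrp1 (-0.57), Cubn (-0.50), Lrp5 (-0.61) and Lrp6 (-0.27) lay below the median of their class in that fit.

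**Figure D5:**
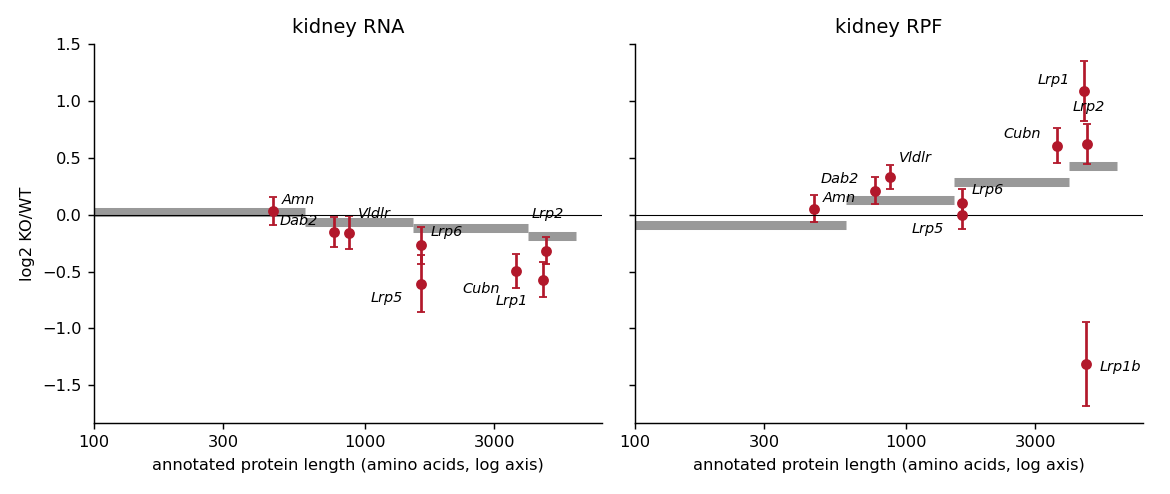
Log2 fold change of KO over WT in kidney RNA-seq and kidney Ribo-seq against protein length in amino acids (log axis) for the genes tested, with bars of 1 standard error, over grey lines that mark the median of each of 4 length classes in the same fit. In Ribo-seq the class medians run from -0.09 for proteins under 600 amino acids to 0.43 for those of at least 4000, with Lrp1, Lrp2 and Cubn above the median of their class and Lrp1b far below.

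Other genes around these receptors were counted by role, to be read against the 7.76% of all transcripts that passed in kidney footprints. Of 8 further receptors of the LDL receptor family tested in kidney footprints, 2 passed, both higher: Sorl1, a sorting receptor (log2 fold change 0.68, adjusted p = 0.0178), and Lrp4, a receptor for agrin (0.52, adjusted p = 0.0307). The median of the 8 was -0.06. Of 25 receptor chaperones, adaptors and parts of the endocytic machinery, 4 passed higher and 1 lower. The higher ones were Myo6, the motor of apical endocytosis (0.55, adjusted p = 0.0176), Cltc, the clathrin heavy chain (0.46, adjusted p = 0.0428), Ap2b1, a subunit of the clathrin adaptor AP-2 (0.44, adjusted p = 0.0257), and Appl1 of early endosomes (0.40, adjusted p = 0.046). The lower one was Cltb, a clathrin light chain (-0.39, adjusted p = 0.0358). The family's chaperones Lrpap1 (0.15) and Mesd (0.03) did not pass.

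Of 12 ligands and vitamin-handling genes 0 passed in kidney footprints with edgeR. The largest log2 fold changes among them were 0.82 for Cyp27b1, the enzyme that activates vitamin D (adjusted p = 0.198), 0.49 for Reln, the ligand reelin (adjusted p = 0.156), and 0.45 for Clu, an apolipoprotein (adjusted p = 0.0513). Of 14 tested partners of the Wnt coreceptors 1 passed higher and 1 lower: Dkk3, a relative of the Dickkopf inhibitors (0.60, adjusted p = 0.0178), and Dvl1, a dishevelled protein that relays the signal (-0.67, adjusted p = 0.0163). Axin2, a target of the pathway, had -1.06 (adjusted p = 0.071). In these 4 lists 0 genes passed in RNA or TE of either tissue, in brain footprints or in disomes with edgeR.

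Across the 24 RNA-seq and Ribo-seq libraries, each assay centred on its mean, the pattern of Lrp2 was most like that of Habp2, Slc2a2, Spp2, Cyp4a31 and Atp6v1b1 (Pearson r 0.996 to 0.998 among 15976 genes). Lrp1 was most like Adgrl2, Myh10, Atp2a2, Hp1bp3 and Herc2 (0.974 to 0.986), and Vldlr was most like Wdr33, Zfp729b, Erlec1, Fam135a and Ext2 (0.782 to 0.814). The libraries fall into 2 tissues, so these values mostly describe the difference between kidney and brain.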

How the data were processed

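Kidney and brain of WT and Rpl41 KO mice were profiled by RNA-seq and Ribo-seq, and kidney by disome-seq. The authors trimmed reads with cutadapt, removed rRNA reads, aligned with STAR to mm10 with multimapping reads allowed, and counted with featureCounts (Subread); versions are not given in the sources used here. They deposited whole-number read counts per transcript, without normalization. Reads shared by transcripts can enter each of them. A further 28 columns of values could not be assigned to a sample and were not used.

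Genes were joined to GENCODE M21 by transcript identifier. All transcripts were fitted with edgeR 4.0.16 (R 4.3.3; filterByExpr, TMM scaling, quasi-likelihood F-test, Benjamini-Hochberg adjustment, threshold 0.05), with genotype as the only term, or with assay or tissue and its interaction with genotype. Standard errors were derived from the fold change and the F statistic. CPM is the count scaled to the total of all counts in a library. The lists and the 9 genes were chosen with earlier results of these data known. Beside the 9, genes called in a KO against WT test were named, with up to 3 genes per list with the largest change in kidney RPF and the 5 genes most like Lrp2, Lrp1 and Vldlr. A further gene that this rule names is not reported here. The stretches of partial transcripts and the 5' share (at least 80% of a partial transcript shared, within the first 40% of the full-length one, at least 500 bases and 100 counts a library) were chosen after the data were seen. A floor of 3 counts was used. Counting limits cover counting error only.

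Alternatives were DESeq2 1.42.0, library totals, no filter, at least 10 counts in every library, 1 transcript per gene, counts summed per gene, a replicate block, limma 3.58.1 voom with quality weights, and leaving out each library. Libraries were taken as paired where every same-numbered pair correlated by over 0.1 in deviations from the group means. This held for kidney disome-seq (0.121 to 0.210), for kidney Ribo-seq with RNA-seq (0.171 to 0.260 in WT and 0.126 to 0.156 in KO) and with disome-seq (0.179 to 0.396 and 0.145 to 0.286), and not for WT with KO in kidney or brain RNA-seq or Ribo-seq. The rule was also met by brain Ribo-seq with RNA-seq in WT (0.185 to 0.451) but not in KO (-0.064 to 0.095). Kidney with brain RNA-seq met it in KO (0.139 to 0.299) but not in WT (0.065 to 0.317). The scripts were tested on simulated counts.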

Additional observations from a re-analysis of the deposited data

Results flagged for a closer look

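Footprints of Dab2 lay wholly higher in KO in kidney and wholly lower in KO in brain, and the difference between the tissues was 0.60 in log2 units, with a standard error of 0.18 and an adjusted p of 0.347 (edgeR, tissue by genotype term over all transcripts). Among 52858 transcripts with at least 10 counts in every Ribo-seq library, 0.21% showed this pattern. Lrp1b footprints lay wholly lower in KO in kidney and wholly higher in KO in brain, with a difference of -1.72 (standard error 0.33, adjusted p = 0.0658), a pattern that 0.42% of these transcripts showed. In kidney Lrp1b rests on 1 to 20 counts a library, so it is itself outside the set of transcripts that gave the 0.42%. No RNA count of Lrp1b was found in 5 of the 6 kidney RNA-seq libraries.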

How the results depend on the processing

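Of all 1753 values of the 9 genes under the alternatives, 100 changed sign, 0 of which passed the threshold in either fit. Among the 1325 values behind a fold change given by gene in the text, 1211 kept direction and side of the threshold, 29 no longer passed, 29 newly passed and 56 changed sign, the largest of these at 0.491. The other sign changes were 7 of the 8 in brain RNA, the 19 in brain TE and the 17 in the RNA tissue by genotype term, on genes given there as counts or ranges, and 1 in brain footprints of Lrp2 that had no adjusted p. In kidney footprints 2 genes passed with DESeq2, with at least 10 counts in every library, with counts summed per gene and with a replicate block, and 0 to 4 with a library left out. All transcripts called there were 3497 with DESeq2, 10106 with voom, 4010 with the block and 285 to 5843 with a library left out, against 5838. The kidney and brain Ribo-seq and RNA-seq numbers do not pair WT with KO, and the block changed no other call of the 9. In kidney RNA voom called 3 and leaving out a library 0 to 2. In brain footprints DESeq2 and no filter each called 1 (Lrp1b). In kidney TE DESeq2 called 3, 1 transcript per gene 3, voom 4 and leaving out a library 0 to 3, and the median was 0.157 without both KO RNA-seq libraries high in mitochondrial rRNA, an alternative chosen after the data were seen. Voom called 1 in brain TE and 1 in the RNA tissue by genotype term, and DESeq2 called 1 in kidney disomes. In the footprint tissue by genotype term DESeq2 and no filter called 1, and leaving out a library 0 to 1. Signs changed in kidney RNA for Amn (-0.014 with library totals, -0.037 without both mitochondrial libraries), Dab2 (0.027 without both, -0.062 to 0.015 with a library left out) and Vldlr (0.038 with voom, -0.096 to 0.067). They changed in kidney footprints for Amn (-0.025 with library totals, -0.040 to 0.14) and Lrp5 (0.031 with no filter, 0.017 summed per gene, 0.0088 with voom, -0.076 to 0.093). They also changed for kidney TE of Amn (0.013 with 1 transcript per gene, 0.062 without both), brain RNA of Lrp2 (-0.51 to 0.086) and brain footprints of Lrp2 (-1.56 to 0.49), where the median over the genes ran from -0.10 to 0.21. In disomes they changed for Lrp1 (-0.041 to 0.53), Amn (-0.061 with library totals, -0.00073 summed per gene, -0.19 to 0.25) and Lrp6 (-0.036, -0.0085, -0.11 to 0.24). In disomes relative to footprints they changed for Lrp2 (-0.17 to 0.071), Cubn (-0.027 with no filter, -0.0024 with voom, -0.15 to 0.14), Amn (0.014 with DESeq2, 0.013 with at least 10 counts, 0.049 with voom, 0.020 with a replicate block across assays, -0.24 to 0.18), Dab2 (-0.015 with no filter, -0.019 to 0.18) and Lrp6 (-0.21 to 0.13). The WT tissue median in RNA was 1.83 with library totals, 3.57 with at least 10 counts and 1.87 with 1 transcript per gene, and in footprints 1.27 with at least 10 counts and 1.36 to 1.66 with a library left out. Library totals moved the median of all transcripts in kidney RNA from -0.03 to -0.19. The causes were not tested, beyond fewer genes or libraries where those define the alternative. Lrp1b in kidney and Lrp2 and Cubn in brain are limited by depth.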
